A study of Mus musculus with 6 samples.

Results

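The regions described here are 5955 short stretches of the mouse genome that carried a Runx1 peak in lung fibroblasts 14 days after bleomycin (D14), carried no peak in sham or day 56 (D56) fibroblasts, and lay at the end of a gene. Peaks of the 3 deposited peak lists on chromosomes 1 to 19 were merged into 56619 union regions wherever they overlapped by 1 bp or more. Of these, 32186 regions (56.8%) held a D14 peak and no sham or D56 peak, and 5955 (10.5% of all union regions) also had their midpoint within 1 kb of either annotated end of a gene in the RefSeq table of build mm10. An end is here the start of the gene or its far end. The regions were chosen by the peak calls of all 3 libraries, so their D14 fold, pileup, q and width are a description and no test was run on them. The name holds only for called peaks: a region without a called peak is not a region without Runx1.

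The cells were GFP+ fibroblasts from lungs of Col1a2-CreERT2;mTmG mice, in which a tamoxifen-inducible Cre driven by the collagen gene Col1a2 switches a membrane reporter to green. The same genotype was used after sham injury, at day 14 and at day 56 after bleomycin given into the trachea, a standard way to bring on lung fibrosis. Each condition had 1 chromatin immunoprecipitation (ChIP) library made with a Runx1 antibody and 1 input library, 6 libraries in all. The series asks about Runx1 in fibrotic activation and fibrotic memory. No source used here gives the number of mice behind a library or their age. Col1a2 decides which cells turn green, so fibroblasts that do not use it are not covered.

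With 1 library per condition the conditions cannot be tested against each other and carry no p-values, and 95% Wilson intervals on shares cover counting error only. The D14 ChIP library held 78744701 tags, against 48816721 for sham and 49669125 for D56, and its peak list was the longest, with 55378 peaks on chromosomes 1 to 19 against 24611 and 14704. The input libraries held 49312043 tags for D14, 39609538 for sham and 19949187 for D56. The larger library of each pair was scaled to the smaller, so D56 peaks were called at the lowest scaled depth. Depth and condition cannot be told apart in the number of regions called at D14 alone. Peaks do not measure RNA, so the fibroblast label could not be checked against expression.

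Runx1 belongs to a small family of transcription factors that bind DNA through the Runt domain, together with the partner subunit CBF-beta, at a short core motif. It can activate or repress a gene, and it is best known from blood formation, where it also works at the promoters of its own family. Gene starts are open stretches of DNA where many factors gather, and in mammals most of them lie in islands rich in the dinucleotide CpG, as housekeeping promoters do, while promoters of genes used by few cell types often hold less CpG.

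The promoter sequences of 6 genes at the regions are printed to show where RUNX cores lie against the called regions. They are RefSeq windows of build mm10 (GRCm38.p6) of 300 bases, 250 before and 50 from the gene start on, written 5′ to 3′ on the strand of the gene. Capitals mark the RUNX core TGTGGT or its reverse complement ACCACA. Of 55 genes named below whose window overlapped a region of the set, 4 held the core, and these are shown first, followed by the genes with the highest D14 fold.
Runx1, chr16:92826025-92826324, minus strand: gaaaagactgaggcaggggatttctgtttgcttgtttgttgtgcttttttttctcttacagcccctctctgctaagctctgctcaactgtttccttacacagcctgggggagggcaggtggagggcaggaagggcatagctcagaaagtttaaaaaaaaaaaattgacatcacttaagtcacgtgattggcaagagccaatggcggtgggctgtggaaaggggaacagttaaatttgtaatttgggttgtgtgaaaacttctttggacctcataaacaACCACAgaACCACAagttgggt
Runx3, chr4:135120395-135120694, plus strand: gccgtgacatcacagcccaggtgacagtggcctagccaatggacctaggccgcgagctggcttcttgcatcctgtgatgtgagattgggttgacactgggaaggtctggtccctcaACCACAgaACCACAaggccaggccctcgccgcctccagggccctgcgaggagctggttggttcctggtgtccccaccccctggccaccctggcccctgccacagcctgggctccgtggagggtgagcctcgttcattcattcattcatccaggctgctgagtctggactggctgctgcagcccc
Crtap, chr9:114390663-114390962, minus strand: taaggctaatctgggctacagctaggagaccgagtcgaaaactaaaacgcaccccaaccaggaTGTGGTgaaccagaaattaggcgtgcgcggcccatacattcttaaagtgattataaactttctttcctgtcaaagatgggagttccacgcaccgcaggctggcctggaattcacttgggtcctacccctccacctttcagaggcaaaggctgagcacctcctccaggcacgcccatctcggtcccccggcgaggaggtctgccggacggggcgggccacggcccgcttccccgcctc
Ndufc2, chr7:97399753-97400052, plus strand: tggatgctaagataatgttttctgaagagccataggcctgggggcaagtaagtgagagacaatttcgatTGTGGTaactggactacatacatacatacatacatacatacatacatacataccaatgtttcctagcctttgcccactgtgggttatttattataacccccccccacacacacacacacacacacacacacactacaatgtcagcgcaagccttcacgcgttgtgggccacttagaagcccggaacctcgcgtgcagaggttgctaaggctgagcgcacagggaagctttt
Nrgn, chr9:37552696-37552995, minus strand: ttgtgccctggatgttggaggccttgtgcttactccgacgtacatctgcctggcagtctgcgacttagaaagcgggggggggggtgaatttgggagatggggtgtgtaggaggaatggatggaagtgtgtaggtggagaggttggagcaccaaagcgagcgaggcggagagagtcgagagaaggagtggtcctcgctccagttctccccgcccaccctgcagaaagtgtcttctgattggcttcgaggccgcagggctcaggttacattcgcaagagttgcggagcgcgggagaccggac
Kif3c, chr12:3364882-3365181, plus strand: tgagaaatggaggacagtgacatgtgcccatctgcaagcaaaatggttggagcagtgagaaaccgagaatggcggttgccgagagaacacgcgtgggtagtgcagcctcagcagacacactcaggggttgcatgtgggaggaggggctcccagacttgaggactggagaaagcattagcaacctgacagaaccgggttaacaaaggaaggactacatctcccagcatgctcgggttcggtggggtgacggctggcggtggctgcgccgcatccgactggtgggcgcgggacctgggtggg

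Runx1 and Runx3, 2 of the 3 genes of the factor family, had such a region at a start, and both windows held 2 RUNX cores side by side. In Runx1 the cores began 28 and 36 bases past the first base of the gene. In Runx3 they began 134 and 126 bases before it. All 4 cores lay inside the called regions, chr16:92825907-92826049 and chr4:135120388-135120633. The Runx3 summit, at position 135120512, fell within the first of its cores, which span 135120511 to 135120524. The Runx1 summit, at position 92826023, lay outside its cores, which span 92826033 to 92826046. The nearest gene end to the Runx3 region was that of Gm16225, a gene model on the other strand. The 2 cores with their first bases 8 apart on the same strand, a spacing taken from these windows, occurred in 7 of 31365 promoter windows (0.0223%). Those 7 windows included the start of Runx2, which met no region, and the windows of Runx3 and Gm16225, which overlap each other. The Runx1 region had a D14 fold of 4.08 and the Runx3 region one of 6.46. Around Runx3, in the gene and 10 kb on either side, 0 sham, 4 D14 and 0 D56 peaks were called, and around Runx1 4 sham, 24 D14 and 2 D56 peaks. Each of these genes also had a second promoter window, away from its annotated ends and without the pair of cores. That of Runx1, chr16:92697280-92697579, met a region called in all 3 libraries. That of Runx3, chr4:135152295-135152594, met a D14-only region. In Crtap and Ndufc2 the single core lay outside the called region, and the Nrgn and Kif3c windows held none.

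The regions were weak at D14, and narrow, compared with regions shared by the libraries. Fold enrichment, the authors' ratio of ChIP signal at a peak's summit over the background around it, ran from 2.12 to 24.4 with a median of 4.84. The pileup, the height of that signal, had a median of 28, and the width a median of 233 bp. Regions called in all 3 libraries that lay at gene ends had a median D14 fold of 16.1 and a median width of 714 bp. Those called in sham and D14 had 7.30 and 420.5 bp. Width was measured on the merged region. A shared region spans the peaks of each library that called it, so its width is not that of its D14 peak. None of the 1000 D14 peaks with the highest fold was in the set (0), and 14 of the 5000 highest were. A fold of 8 or more was reached by 742 regions (12.5%) and a fold of 15 or more by 22. D14-only regions away from gene ends had nearly the same median fold, 4.71, and a median width of 210 bp.

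**Figure D1:**
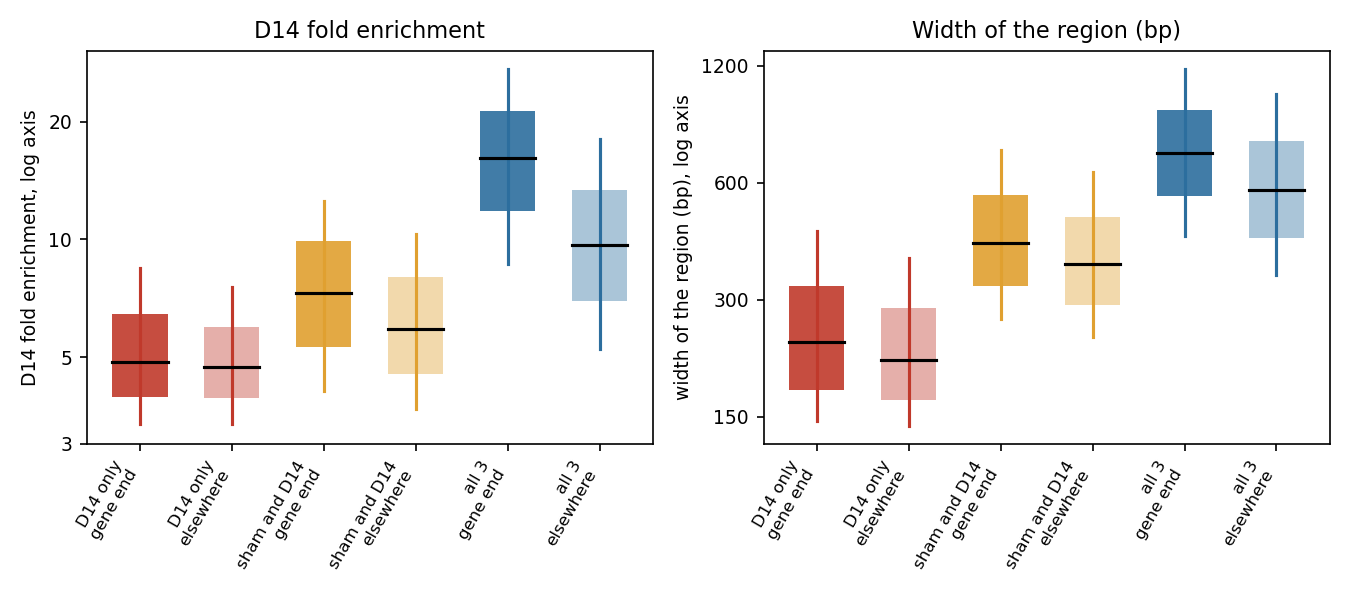
D14 fold enrichment (left) and width in bp (right), both on log axes, for regions called at D14 only, in sham and D14, and in all 3 libraries, at gene ends and elsewhere. Width is that of the merged region, across all libraries that called it. Boxes span the 25th to 75th percentile, black lines are medians and thin lines reach from the 10th to the 90th percentile; D14-only regions at gene ends sit lowest together with D14-only regions elsewhere, at medians of 4.84 and 4.71.

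Gene ends took a smaller share of D14-only regions than of the 3 other classes with a D14 peak. Of the D14-only regions 18.5% (95% interval 18.1 to 18.9) lay at a gene end, against 24.6% (23.7 to 25.5) of regions called in sham and D14, 36.6% (32.4 to 41.1) of those called at D14 and D56, and 59.7% (58.9 to 60.5) of those called in all 3. Regions called in sham alone were close to the D14-only value, at 18.3% (16.6 to 20.02). Of the 56 regions called in sham and D56 alone, 3 lay at a gene end (5.36%, 1.84 to 14.6). Because strong peaks lie at gene starts more often, the classes were also set side by side at like D14 fold. Between folds of 8 and 12 the share at gene ends was 26.4% (24.7 to 28.2) for D14-only regions, 33.3% (31.3 to 35.5) for sham and D14, and 45.4% (43.7 to 47.1) for all 3. At a fold of 4 to 6 the shares were 17.0%, 18.2% and 20.8%. At a fold of 2 to 4 the order turned, with 17.9%, 16.6% and 10.9%, the last from 192 regions. Over all folds, the D14-only share was below the all-3 share in each of 12 other ways of defining the regions.

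**Figure D2:**
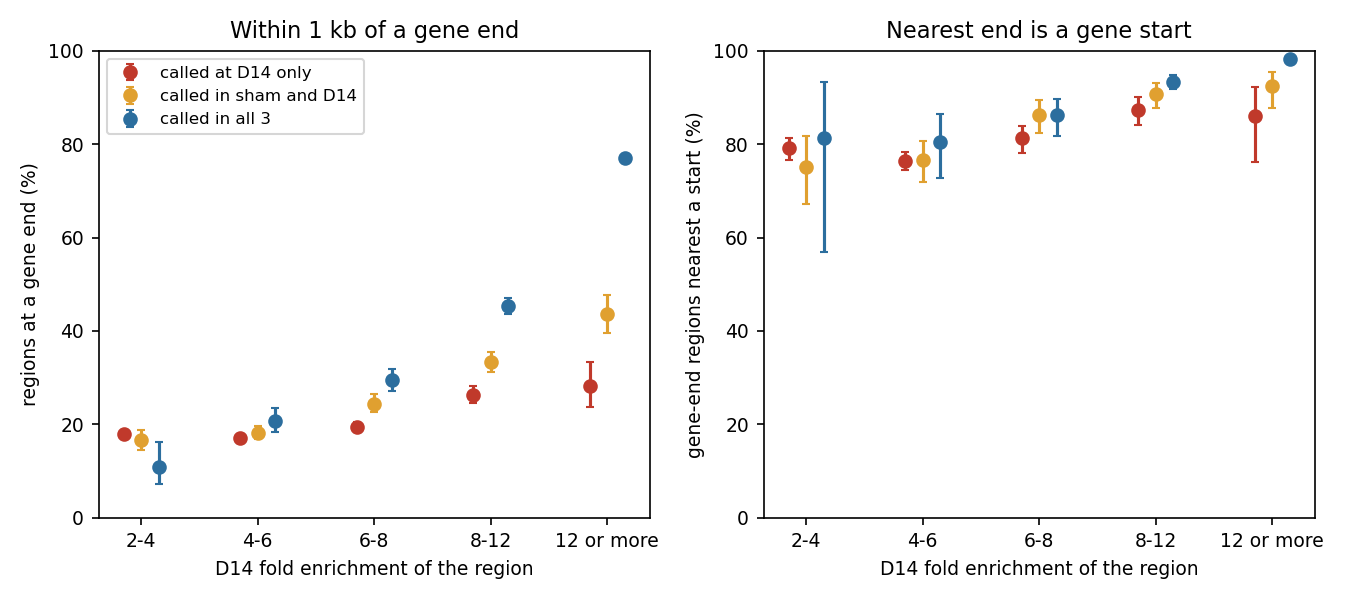
Left, the share of regions within 1 kb of a gene end; right, the share of gene-end regions whose nearest end is a gene start; both in percent, by D14 fold enrichment and class of region, with 95% Wilson intervals. From a fold of 4 upward the D14-only points are the lowest on the left, at 26.4% against 45.4% for all 3 libraries between folds of 8 and 12.

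Most of the regions sat at gene starts, but less tightly than shared regions did. The strand of the gene with the nearest end was known for 4276 of the regions, and 3393 of these (79.3%, 78.1 to 80.5) were nearest a start. The share was 85.2% (83.4 to 86.9) for sham and D14 and 96.4% (95.9 to 96.8) for all 3. The remaining 883 regions were nearest a far end, where only 57 lay within 100 bp of it. At starts, the median distance from midpoint to start was 291 bp for the D14-only regions, 128 bp for sham and D14 and 96 bp for all 3. Within 100 bp of the start lay 31.7% (30.2 to 33.3), 43.6% and 51.6%. Upstream of the start lay 37.3% (35.7 to 38.9) of the D14-only regions and 40.4% (39.2 to 41.7) of the all-3 regions. Past the peak at the start itself, the D14-only regions were spread more widely on both sides. Inside the gene they formed a shoulder, with 6.31% of them between 500 and 600 bp downstream against 1.64% of all-3 regions. From 1000 to 300 bp upstream their share was also the highest of the 3 classes. Between 500 and 400 bp upstream it was 2.53%, against 0.851% for sham and D14 and 0.505% for all 3.

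**Figure D3:**
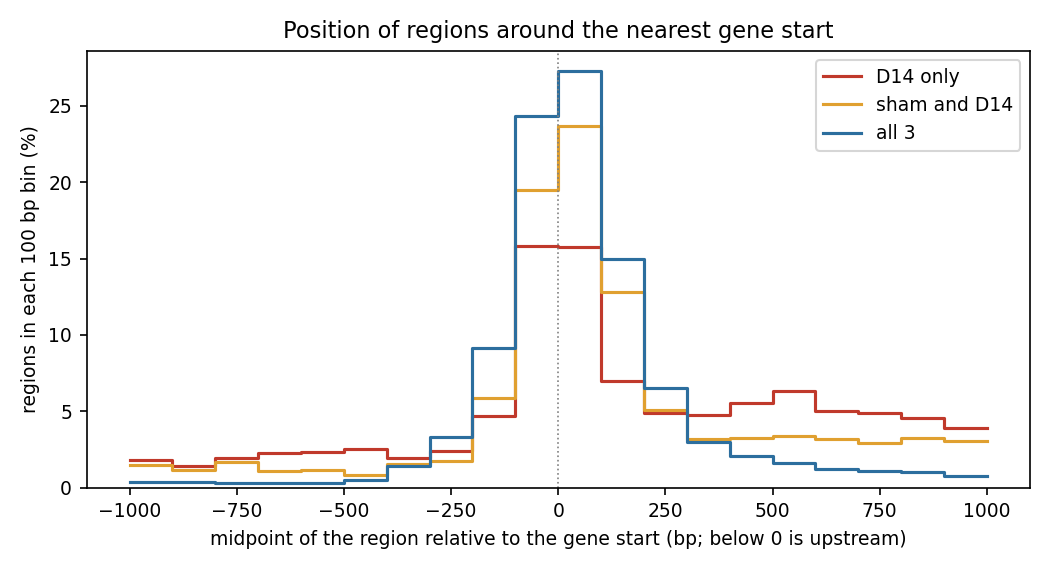
Share of regions in 100 bp bins of the distance from the midpoint to the nearest gene start, for gene-end regions whose nearest end is a start; negative values are upstream. All 3 classes peak at the start, and the D14-only curve is lower there and runs above the others beyond 300 bp on either side.

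Many of the regions had a peak of another library close by. A sham peak lay within 1 kb, without touching, of 1565 of the regions (26.3%, 25.2 to 27.4), against 8.34% (8.01 to 8.68) of D14-only regions elsewhere. These 1565 regions had a median fold of 4.24. Of the 1194 with known strand, 1107 (92.7%) were nearest a start, at a median distance of 578 bp on either side, and 334 of the 1107 (30.2%) lay upstream. The other 4390 regions had a median fold of 5.13, and the 2286 of them nearest a known start lay a median of 140 bp from it. No sham or D56 peak lay within 10 kb of 3128 regions (52.5%), and the 1687 of these nearest a known start had a median distance of 131 bp. The rule bears on these distances, since a region that may not touch a sham peak at a start has to lie away from that start. At the 1 kb limit, Pcbd2, Zbtb18 and Hcrtr1 lay 1000, 999 and 998 bp from an end, with folds of 3.41, 3.27 and 5.59. Just outside lay regions at Pradc1, Ctf1 and Mettl5, at 1001, 1002 and 1003 bp, with folds of 4.36, 4.25 and 12.1.

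The 9 named genes with the strongest regions had no sham or D56 peak in the gene or 10 kb around it. The 15 named genes with the highest D14 fold were Nrgn, Kif3c, Asxl3, Tmem108, Zfp518b, Slco4a1, Fzd9, Acvr1c, Cdk5r2, Agk, Pclaf, Amph, Asphd1, Ydjc and Nr2c2ap, with folds from 20.2 down to 14.8. Among the 25 highest regions, 10 were passed over because their nearest gene was not a named protein-coding gene. Nrgn encodes neurogranin, a calmodulin-binding protein of neurons. Its region at chr9:37552546-37552941 had a fold of 20.2, a pileup of 104 and a midpoint 2 bp from the start, and the nearest sham peak was 60496 bp away. Kif3c, a kinesin motor subunit, had a region at chr12:3364953-3365526 with a fold of 20.1, a midpoint 107 bp inside the gene, and no sham or D56 peak in the gene or 10 kb around it. Tmem108, a membrane protein studied in neurons, had a fold of 19.1 at chr9:103761700-103762096, again 2 bp from the start. Acvr1c encodes the activin receptor ALK7, and its region at chr2:58357696-58358094, with a fold of 16.0, was centred 1 bp from the start. Fzd9, a Wnt receptor, had a fold of 16.7 at chr5:135250957-135251421, 142 bp upstream of the start. Cdk5r2, an activator of the kinase CDK5, had a fold of 15.7 at chr1:74854736-74855028, 147 bp upstream. Pclaf, a PCNA-binding factor of dividing cells, had a fold of 15.4, and a sham peak lay 4916 bp away. In the list of neuronal and synaptic genes, which holds Nrgn, 6 of 29 (20.7%) had a region, near the 19.2% of all protein-coding genes.

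The 5 widest regions at named genes lay at Bmp2, Twist1, Samd1, Ctdspl and Cdyl2. Bmp2, a secreted ligand of the BMP pathway, had a region of 1166 bp at chr2:133551978-133553143 with a fold of 9.31, and the nearest sham peak was 108205 bp away. Twist1, a transcription factor of mesenchyme, had one of 1094 bp at chr12:33957239-33958332 with a fold of 7.49, 114 bp inside the gene, and the nearest sham peak was 527492 bp away. The Samd1 region (1055 bp) and the Ctdspl region (1042 bp) each had a sham peak within 1 kb, at 391 and 516 bp. Of the protein-coding genes 66 had 3 or more separate regions of the set, and the 5 named here were taken by number and then by fold. Kat2b, H1f10 and Prr7 had 4 each, and Nrgn and Spef1l 3. For Kat2b, an acetyltransferase, the 4 folds ran from 3.91 to 5.85, and for the linker histone gene H1f10 from 2.88 to 5.50.

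Across genes, 3967 of 20665 protein-coding genes (19.2%) had a region of the set within 1 kb of an end, and 8255 (39.9%) had a region called in all 3 libraries. The 3967 included 1406 genes (35.4%) that held both. In 1184 (29.8%) no sham or D56 peak was called in the gene or 10 kb around it. At the regions the nearest gene was protein-coding in 66.1% (64.9 to 67.3) and a long non-coding RNA in 27.1% (25.9 to 28.2), against 87.0% and 10.6% at all-3 regions. In the gene table itself 43.9% of the genes are protein-coding and 26.4% long non-coding, so the share of the latter at the regions was near that of the table. Gene groups are described below by how many members had a region, to be read against 19.2%, and against 39.9% for regions of all 3. The rule bears on these counts, since a region of the set may not touch an all-3 region at the same end. Of the 12410 genes without an all-3 region at an end, 2561 (20.6%) had a region of the set. The groups were chosen with earlier results of these data known.

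Markers of fibrotic fibroblasts had the highest share of the 42 lists, 14 of 20 genes (70.0%, 48.1 to 85.5), with an interval that overlaps those of several others, while 3 of 20 had an all-3 region. Among genes without an all-3 region they were not the highest, at 12 of 17 (70.6%). Integrins then had 11 of 14 (78.6%), and BMP genes and alveolar markers 9 of 12 each (75%). Tnc encodes tenascin-C, a matrix glycoprotein made during repair. Its region at chr4:64046669-64047433 was 765 bp wide, with a fold of 9.72 and a midpoint 36 bp from the start, and 0 sham, 2 D14 and 0 D56 peaks were called in and around the gene. Grem1, a secreted BMP inhibitor, had its only peak of any library there, with a fold of 6.37 at 107 bp from the start. Lrrc15, a surface protein of activated fibroblasts, also had a single D14 peak and no other, with a fold of 4.03 and a midpoint 1 bp from the start. Cthrc1, a secreted protein of matrix-producing fibroblasts, had a single D14 peak with a fold of 4.13, 699 bp from an end. Col8a1, a short-chain collagen, had a region 5 bp from its start with a fold of 5.53, and 0 sham and 0 D56 peaks. Scx, a transcription factor of tendon, had a fold of 5.39 at 24 bp from an end, again with 0 sham and 0 D56 peaks. The others were Ddah1 (6.89), Ncam1 (6.60), Ltbp2 (5.86), Adam12 (4.95), Runx1, Lox (3.9), Fst (3.27) and Pmepa1 (2.99), the values being D14 folds. Acta2, Aspn, Fap, Postn, Sfrp1 and Spp1 had none.

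Integrins, the receptors that tie cells to matrix and free TGF-beta from its latent form, had a region at 11 of 18 genes (61.1%, 38.6 to 79.7) and an all-3 region at 4. No gene had both. Itgb3 had a fold of 9.77 at chr11:104607886-104608224, 55 bp from an end. Itga7, a laminin receptor subunit, had 9.76 at 322 bp. Itgb5, a partner of the alpha-v subunit, had a region 797 bp wide with a fold of 7.89, 50 bp from the start, in a gene with 7 sham, 20 D14 and 4 D56 peaks. Itga9 (7.67 at 51 bp), Itga8 (6.43 at 11 bp) and Itga3 (6.0 at 17 bp) also had theirs at the start. Itga10 had its region 816 bp from the far end. Of the 11 regions 7 were nearest a known start.

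The BMP pathway had a region at 12 of 20 genes (60%, 38.7 to 78.1) and an all-3 region at 8. Among the ligands, Bmp6 had a fold of 10.0 at chr13:38344947-38345241, Bmp2 had 9.31 and Bmp7 5.84. Among the receptors, Bmpr1b had 7.80 at 214 bp from the start. Among the SMAD proteins that carry the signal, Smad9 had 10.6 at chr3:54755303-54755692, 42 bp from the start, Smad1 had 6.92 and Smad5 4.33. The secreted inhibitors Grem1 (6.37) and Nog (4.23) and the target genes Id2 (3.9) and Id3 (3.49) also had one. The remaining gene of the list with a region was Bmp1 (3.72), which had no all-3 region at an end. The TGF-beta pathway stood otherwise: 10 of 28 genes (35.7%, 20.7 to 54.2) had a region of the set and 22 an all-3 region, and 7 had both. Its strongest were the latent TGF-beta binding proteins Ltbp1 (9.35 at 80 bp from the start) and Ltbp2. The regions at Tgfb1 (5.15), Tgfbr1 (4.20), Tgfbr2 (4.14) and Tgfb3 (4.03) were added to genes with an all-3 region.

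Other signalling genes of the mesenchyme were frequent too. Of growth factors and receptors 14 of 28 (50%, 32.6 to 67.4) had a region, led by Met, the receptor of hepatocyte growth factor (11.8 at chr6:17463763-17464160), Fgfr1 (10.7 at 33 bp from an end), Fgfr4 (9.88 at 40 bp from the start) and Fgf2 (6.47, centred 0 bp from the start). The Wnt pathway had 18 of 34 (52.9%, 36.7 to 68.5), with low folds: a median of 4.13 and a highest of 7.42 at Wnt2b. Wnt5a, a ligand of the non-canonical branch, had 3 regions, the strongest with a fold of 5.18. With a fold of 5 or more required in all lists, 7 of 34 Wnt genes (20.6%) kept a region, against 16.4% of protein-coding genes.

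Markers of alveolar fibroblasts, which carry lipid and support the air sacs, had 11 of 19 (57.9%, 36.3 to 76.9) and 7 all-3 regions, 10 of the 11 at a start. Examples were Cxcl14, a chemokine (7.99), Plin2, a lipid droplet coat protein (7.32), Scn7a, a sodium channel (7.12), and Itga8. Markers of adventitial fibroblasts had 2 of 20 (10.0%, 2.79 to 30.1), Cd34 with a fold of 9.98 at 42 bp from the start and Pcolce2 with 7.78. With a fold of 5 or more it was 5 of 20 (25%), against 16.4% of all genes. Without the sham list, that is with D14 set against D56 alone, the adventitial count was 8 of 20 (40.0%) and that of all genes 26.2%. Inflammatory fibroblast genes had 4 of 25 (16.0%, 6.40 to 34.7) and 16 all-3 regions. Without the sham list they had 10 of 25, against 26.2% of all genes.

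Matrix genes were near the background as the regions are defined here, and above it in several other settings. Of collagen and matrix proteins 8 of 38 (21.1%, 11.1 to 36.3) had a region, each nearest a start, and 18 had an all-3 region, with no gene having both. They were Col18a1 (9.54 at 28 bp), Mfap2 (7.90), Lamb1 (6.32), Sparc (6.16), Lama2 (6.12), Col6a3 (5.73 at 49 bp), Fbn1 (5.55) and Col3a1 (4.35 at 109 bp). Col1a1 and Col1a2, the chains of type I collagen, had none. With a fold of 5 or more required, 14 of 38 (36.8%) had one, against 16.4% of all genes, with a −log10 q of 5 or more 31.6% against 18.2%, and with either equal list length 5 of 38 (13.2%) against 3.27% and 4.13%. At a distance limit of 2500 bp the share was 55.3% against 28.6%, and with a reciprocal overlap of 50% it was 34.2% against 25.2%. Without the sham list 19 of 38 had one, against 26.2% of all genes. Enzymes that fold and crosslink collagen had 10 of 24 (41.7%, 24.5 to 61.2), led by Crtap, a subunit of the prolyl 3-hydroxylase complex, with a fold of 11.5 at chr9:114390433-114390849, P3h2 (9.31, 8 bp from an end) and Loxl3 (8.11). With no sham or D56 peak allowed within 1 kb, 3 of 24 (12.5%) had one, against 12.7% of all genes. Matrix proteases and inhibitors had 8 of 23 (34.8%, 18.8 to 55.1), with Plau, the urokinase gene, at a fold of 10.97 and its receptor gene Plaur at 7.79.

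Cyclins, CDKs and CDK inhibitors had 12 of 33 (36.4%, 22.2 to 53.4) and 26 all-3 regions. Cdkn2a, an inhibitor of the cell cycle linked to senescence, had a fold of 9.17 at chr4:89294440-89295006 with 0 sham, 2 D14 and 0 D56 peaks. Ccnb2, a mitotic cyclin, had 7.56, and Ccnd1, a G1 cyclin, had 6.96, both also without a sham or D56 peak around the gene. The other 9 had folds of 4.55 or less. Housekeeping lists mostly held shared regions and differed in how often they held one of the set. Cytosolic ribosomal protein genes had 6 of 64 (9.38%, 4.37 to 18.98) against 57 with an all-3 region. For spliceosome genes the counts were 4 of 43 (9.30%, 3.68 to 21.6) and 40, for proteasome genes 5 of 38 (13.2%, 5.75 to 27.3) and 31, and for complex I genes 5 of 41 (12.2%, 5.32 to 25.5) and 31, with intervals that include 19.2%. Secretory transport had 8 of 30 (26.7%), autophagy and lysosome 7 of 30 (23.3%) and ER chaperones 5 of 25 (20%), with all-3 regions at 27, 29 and 23. Few of these genes lacked an all-3 region. Of those that did, 2 of 7 ribosomal, 0 of 3 spliceosome, 1 of 7 proteasome and 3 of 10 complex I genes had a region. For secretory transport it was 2 of 3, for autophagy 0 of 1 and for ER chaperones 1 of 2, against 20.6% of all such genes. With a fold of 5 or more required, the proteasome count was 9 of 38 and the spliceosome count 9 of 43 (20.9%). The cytosolic ribosomal count was then 9 of 64 (14.1%), and the share of all genes 16.4%. Without the sham list these counts were 11, 9 (20.9%) and 8 (12.5%), in the same order, against 26.2% of all genes.

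Among regulators and the contractile machinery the counts lay closer to the background. Contractile and serum response factor genes had 9 of 28 (32.1%), with Lmod1, an actin nucleator of muscle, at a fold of 10.7 and the smooth muscle gene Cnn1 at 8.59, 39 bp from its start. Histone methylation and Polycomb genes had 12 of 39 (30.8%), with Kdm2b, a histone demethylase, at 7.68. Hox and forkhead factors had 14 of 53 (26.4%), and the region at Hoxc10, with a fold of 6.42, was the only peak of any library there. YAP and TEAD pathway genes had 5 of 23 (21.7%), led by Vgll4, a TEAD cofactor, at 8.22. RUNX genes and partners had 3 of 24 (12.5%), Runx1, Runx3 and the corepressor gene Tle4 (6.23), and 14 an all-3 region. AP-1 genes had 2 of 17 (11.8%). The count of RUNX genes and partners was 9 of 24 (37.5%) with a fold of 5 or more, against 16.4% of all genes, and again 9 with a reciprocal overlap of 50%, against 25.2%. Without the sham list the 6 counts were 17, 19, 24, 11, 10 and 4, in the order given, against 26.2% of all genes.

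Markers of other lung cell types also had such regions, in cells isolated as GFP+. Of endothelial markers 7 of 20 (35.0%, 18.1 to 56.7) had one and 0 of 20 had an all-3 region. Tek, an angiopoietin receptor, had a fold of 5.57, Flt1 and Kdr, receptors of vascular endothelial growth factor, had 5.18 and 4.13, and Cldn5 had 4.97. Other endothelial genes, Pecam1, Cdh5 and Vwf among them, had none. Pericyte and smooth muscle markers had 5 of 13 (38.5%, 17.7 to 64.5), mesothelium markers 3 of 9, lung epithelium markers 5 of 21 (23.8%), myeloid markers 3 of 21 (14.3%) and lymphocyte markers 1 of 17. Among epithelial markers Pdpn, also found on fibroblasts, had a fold of 12.8 at chr4:143299382-143299680, 33 bp from the start. Cx3cr1, a myeloid chemokine receptor, had 14.6, at 917 bp from its far end. The part of other cells in these counts was not tested.

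The lists with the highest shares had smaller counts with peak lists of equal length, which holds each library to the same number of peaks. With the 14704 strongest peaks by p in each list, the rule gave 773 regions, at 3.27% of protein-coding genes. With the strongest by fold it gave 964, while 551 of the 5955 regions were among the D14 peaks kept, so regions were also gained where a sham or D56 peak dropped out. Fibrotic markers then had 1 of 20 (5.00%), BMP genes 0 of 20, integrins 3 of 18 (16.7%), alveolar markers 2 of 19 (10.5%), growth factors and receptors 3 of 28 (10.7%) and Wnt genes 1 of 34 (2.94%). With the strongest peaks by fold, integrins had 11.1%, BMP genes 20% and Wnt genes 0 of 34, against 4.13% of genes. Endothelial markers had 0 of 20 in both. Adventitial markers had 2 of 20 in both, which is 10% and above the share of all genes there. By fold these were not both of the genes named above, since the Pcolce2 region, with a fold of 7.78, was not kept. The part of depth in the list counts was not tested.

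**Figure D4:**
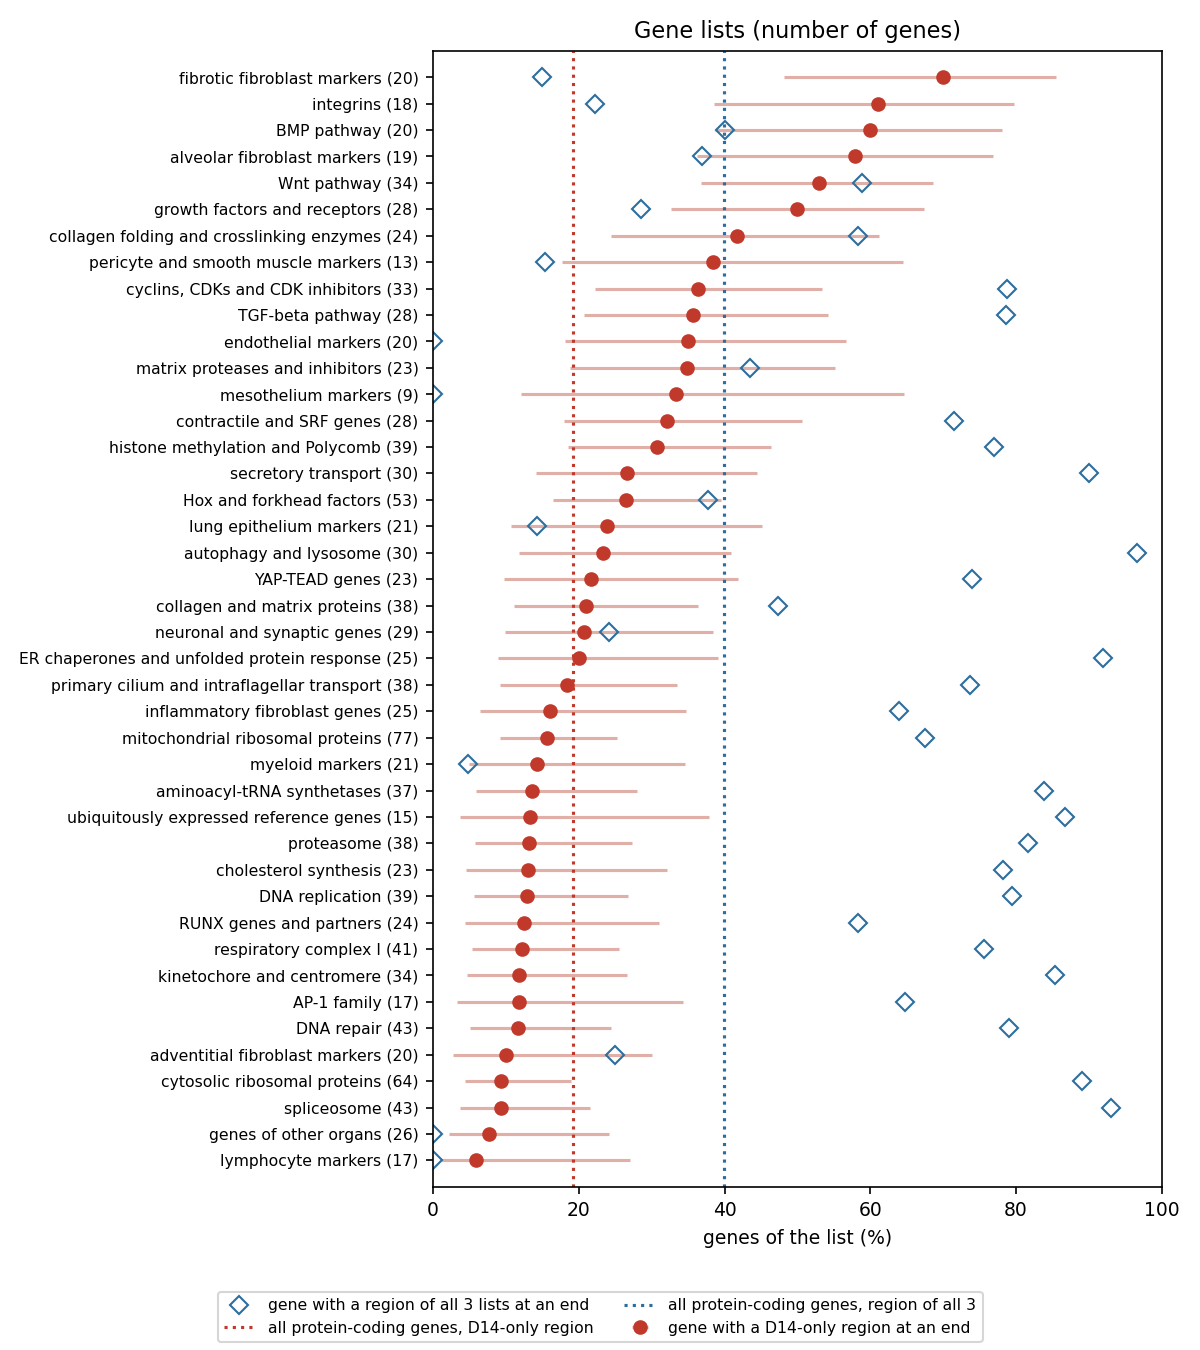
Share of the genes of each list, in percent, with a D14-only region at an end (red points, 95% Wilson intervals) and with a region of all 3 libraries at an end (blue diamonds); numbers of genes in brackets, dotted lines the shares of all protein-coding genes, 19.2% and 39.9%. Fibrotic markers are at the top with 70.0%, and the ribosomal, spliceosome, proteasome and complex I lists lie below 19.2% with blue diamonds far to the right.

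Promoters at the regions held less CpG than those at shared regions and more than those without a region. Windows were compared where a region of the set, and of no other class, met them: 1964 windows, out of 31365. Only 1764 of the 5955 regions overlapped a promoter window. The CpG and motif values therefore do not cover the other regions of the set. Their median observed over expected CpG was 0.638, against 0.695 for sham and D14, 0.833 for all 3 and 0.217 for windows without a region. Median GC content was 59.3%, 58.7%, 63.7% and 48.0%. A CpG ratio of 0.6 or more was found in 54.6% (52.4 to 56.8) of the windows of the set and in 86.0% (85.3 to 86.8) of the all-3 windows.

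Motifs were searched as literal letters on both strands. The RUNX core TGTGGT was in 13.8% (12.3 to 15.4) of the windows of the set, 11.3% for sham and D14, 10.5% for all 3, 20.3% without a region and 16.7% of all windows. Among CpG-rich windows, those with a ratio of 0.6 or more, the shares were 9.51%, 9.66%, 9.75% and 9.87%, within each other's intervals. A C variant of this core went the other way against windows without a region. It was in 9.62% (8.40 to 11.01) of the windows of the set and 3.79% (3.52 to 4.07) without a region. For sham and D14 and for all 3 the shares were 9.35% and 10.97%. In CpG-rich windows the set had 12.8% (10.9 to 14.9) and windows without a region 9.94% (8.55 to 11.5), with overlapping intervals. At a ratio under 0.6 they had 5.83% (4.47 to 7.56) and 3.22% (2.96 to 3.50). The ETS motif CCGGAAG, bound by a family of factors common at housekeeping promoters, separated the classes. It was in 7.74% (6.64 to 9.01) of the windows of the set, 17.1% (15.1 to 19.4) for sham and D14, 21.8% (21.0 to 22.8) for all 3, 2.63% without a region and 9.0% of all windows. In CpG-rich windows it was in 9.05% (7.47 to 10.9), 22.4% (19.6 to 25.6), 23.1% (22.2 to 24.1) and 5.80% (4.74 to 7.06). At a D14 fold of 8 to 12, in windows of any CpG ratio, the shares were 9.80% (7.25 to 13.1), 16.1% (13.0 to 19.9) and 21.2% (19.1 to 23.5). Windows of the set thus held the ETS motif less often than all-3 windows in both comparisons, and more often than windows without a region. At that fold the intervals of the set and of sham and D14 overlapped, and the median CpG ratio was 0.714 for the set and 0.797 for all 3. At lower folds the intervals of the set and of sham and D14 did not overlap. At a fold of 4 to 6 the shares were 7.17% (5.52 to 9.26) and 13.8% (9.62 to 19.5). At 6 to 8 they were 7.99% (5.85 to 10.8) and 17.7% (13.7 to 22.5), at median CpG ratios of 0.685 and 0.692.

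The SP/KLF motif GGGCGG was in 56.5% of the windows of the set, 74.0% for all 3, 13.5% without a region and 36.0% of all windows. In CpG-rich windows it was in 71.2% (68.4 to 73.8) of the set, 66.3% (62.8 to 69.6) for sham and D14, 77.7% (76.8 to 78.7) for all 3 and 51.7% without a region. At a D14 fold of 8 to 12, in windows of any CpG ratio, the shares were 66.8%, 61.3% and 64.7%. At a fold of 4 to 6 they were 53.3% (49.7 to 56.9), 41.0% (34.2 to 48.1) and 42.9% (33.2 to 53.1). At 6 to 8 they were 59.6%, 59.4% and 54.2%. The gap to all 3 was not seen in these fold bins. The CCAAT box of NF-Y, CCAAT, was in 26.5% (23.9 to 29.2) of CpG-rich windows of the set, 25.6% for sham and D14, 40.4% (39.2 to 41.5) for all 3 and 28.5% without a region. At a D14 fold of 8 to 12, in windows of any CpG ratio, the shares were 32.2%, 30.6% and 31.0%, again without a gap. It was in 37.3% of all windows. The AP-1 motif TGANTCA, of the Fos and Jun factors, was in 9.22% (8.02 to 10.6) of the windows of the set, 3.70% (3.31 to 4.13) for all 3 and 7.85% of all windows. Among windows with a CpG ratio under 0.6 it was in 14.8% (12.6 to 17.3) of the set, 11.7% (8.94 to 15.1) for sham and D14, 6.80% (5.47 to 8.41) for all 3 and 10.25% (9.80 to 10.7) without a region. At a D14 fold of 8 to 12, in windows of any CpG ratio, the set had the AP-1 motif in 8.04% (5.75 to 11.1). Sham and D14 had it in 6.91% and all 3 in 5.12% (4.05 to 6.45), with overlapping intervals. The TATA box TATAAA was in 8.15% of the windows of the set, 5.03% for all 3 and 13.6% of all windows. A match is a run of letters, not a measured site.

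**Figure D5:**
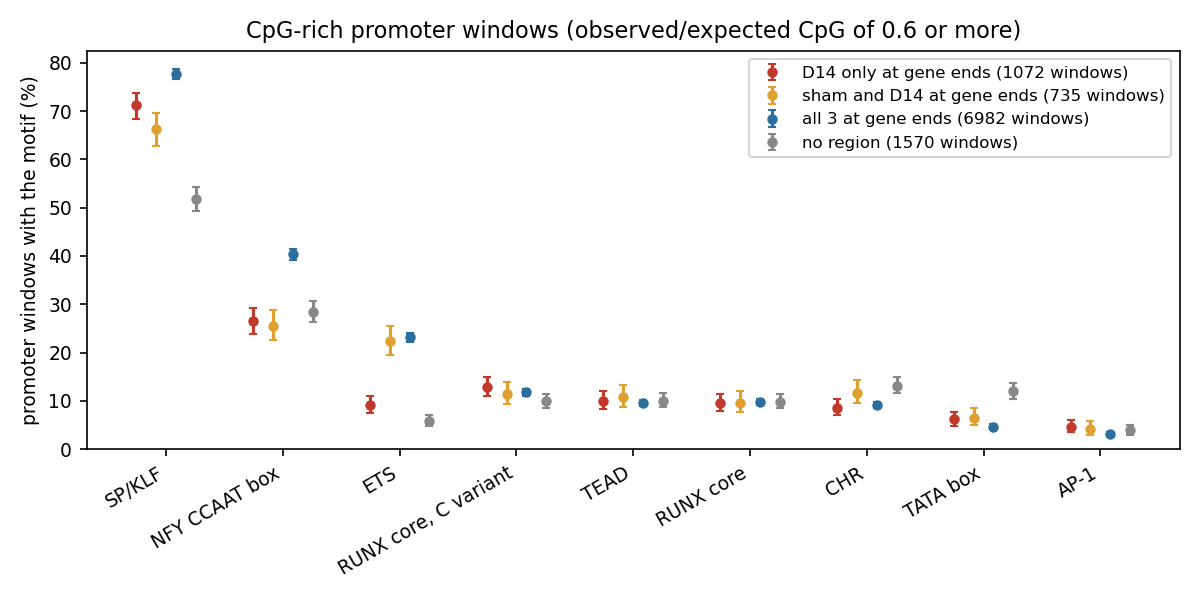
Share of CpG-rich promoter windows, in percent with 95% Wilson intervals, that hold each motif on either strand, by class of the region that meets the window. The ETS points separate the 1072 windows of D14-only regions, at 9.05%, from the shared classes at 22.4% and 23.1%. The points of the RUNX core TGTGGT lie within each other's intervals.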

How the data were processed

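Per the labels, Runx1 ChIP and input DNA of fixed lung cells was made into 1 library each for sham, D14 and D56. The submitters' processing notes name BWA, SAMtools, MACS2 and build mm10. The file headers state MACS 2.0.10.20120913, a q cutoff of 0.01, the matching input as control for every ChIP library, scaling of the larger library to the smaller, and no pooling. The lists deposited by the authors give, per peak, a signal (pileup), a fold ratio over the local background, and −log10 p-values and q-values. These are set per library, so they were used only within a list.

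Union regions, classes and distances to gene ends were computed in Python 3.11.15 with pandas 2.3.3 and checked on simulated data. Midpoints were compared with RefSeq gene ends (GRCm38.p6). Exons are not in that table, and strand came from the promoter table (31365 windows). Members, 42 gene lists and motifs were chosen with earlier results of these data known. Named genes are those nearest the 15 highest and 5 widest regions, up to 3 per list, 5 of the genes with 3 or more regions (by number, then fold), and those at the 1 kb limit; the other genes, the pair of RUNX cores and the comparison with Runx2 were chosen after their values were seen. Alternatives changed the overlap, peak thresholds, list lengths, distance, gene types and chromosomes; leaving out the sham or the D56 list, and list counts under each setting, were added after seeing the data.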

Additional observations from a re-analysis of the deposited data

How the results depend on the processing

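The number of regions, 5955, was 773 and 964 with each list cut to its 14704 strongest peaks by p and by fold, and 3739 and 9702 at a distance limit of 500 and 2500 bp. In the order share of D14-only regions at gene ends, share at starts and share of protein-coding genes, the values were 21.02%, 82.5% and 25.2% with a reciprocal overlap of 50%. They were 15.4%, 74.0% and 12.7% with no sham or D56 peak allowed within 1 kb, 15.2%, 74.0% and 13.4% with peaks under 500 bp apart joined, and 23.2%, 84.4% and 16.4% with a fold of 5 or more. With equal lists they were 30.8%, 88.8% and 3.27% by p and 31.5%, 89.3% and 4.13% by fold. They were 11.6%, 82.6% and 12.3% at 500 bp and 30.1%, 71.4% and 28.6% at 2500 bp. With protein-coding genes alone the first pair was 12.9% and 83.2%, and with a −log10 q of 5 or more the share of genes was 18.2%. Without matching for fold, the D14-only shares at ends and at starts stayed below those of all-3 regions in each of the 12 settings tried.

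Fibrotic markers had 45% with a fold of 5 or more and 5% with either equal length, BMP genes 0% and 20%, and integrins 16.7% and 11.1%. Leaving out the sham or the D56 list, settings added after seeing the data, gave 6128 to 8258 regions, 18.8% to 20.02% at ends, 79.5% to 80.8% at starts, 19.8% to 26.2% of genes and 70% to 80% of fibrotic markers. No paired analysis was possible because each condition has 1 ChIP library and no replicate number. Depth differs between the libraries and cannot be told apart from the condition. The absence of a call is not the absence of binding.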

Other observations

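Genes of cilia and flagella were unevenly represented. Of 33 protein-coding genes whose symbol begins with Cfap, the cilia and flagella associated proteins, 18 (54.5%, 38.0 to 70.2) had a region of the set and 10 an all-3 region. The list of primary cilium and intraflagellar transport genes was at the background, with 7 of 38 (18.4%). Olfactory receptor genes (Olfr) had 5 of 1104 (0.453%) and vomeronasal receptor genes (Vmn) 0 of 354, while zinc finger genes (Zfp) had 84 of 388 (21.6%). These symbol families were chosen after their values were seen, and they are a description.

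A tRNA gene was the nearest gene at 59 regions (0.991%) and a miRNA gene at 55 (0.924%), where tRNA genes are 0.831% and miRNA genes 2.41% of the gene table. Among the latter, Mir206, known from muscle, had a D14 fold of 10.1 at 852 bp, Mir203, known from epithelia, had 7.35 at 386 bp and 3.72 at 34 bp, and Mir34b had 6.89 at 30 bp. Starts of genes on both strands lay at 11.03% (10.0 to 12.1) of the regions with a start, against 20.9% (19.9 to 21.9) of all-3 regions.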
